A study of Homo sapiens with 20 samples.

Results

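The transcripts described here are 7 long RNAs that stress granule studies use as reference molecules: the mRNAs AHNAK, DYNC1H1, HELZ, CDK6, ZNF704 and PEG3 and the noncoding RNA NORAD. They were taken by symbol, not by any measured value, although earlier results of these data were known when they were chosen. They make up 7 of the 62266 genes listed in the deposited tables. Total RNA had been sequenced from exosomes, the small vesicles that cells release, and from cytoplasmic RNA granule cores, both prepared from HEK293, a line of human embryonic kidney cells. The 4 groups of 5 biological replicates each were control exosomes, exosomes of HD-induced cells (HD exosomes), control granules, and granules of HD-induced cells (HD granules), where HD stands for Huntington and the titles abbreviate granules as SG. The labels do not say how HD was induced and name no treatment that would provoke stress granules. All groups share 1 cell line, so the comparisons hold for that line.

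Stress granules are assemblies of RNA and protein that form in the cytoplasm when translation initiation stalls, and they take up mRNAs released from ribosomes. Long and poorly translated mRNAs are known to be taken up more than short, well translated ones. For that reason long transcripts such as AHNAK, DYNC1H1 and NORAD serve as positive probes when granules are imaged. Exosomes leave the cell with a cargo that includes fragments of mRNA, and the same transcript can be found in both compartments.

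The members cover several jobs in the cell. AHNAK is a giant scaffold protein beneath the plasma membrane that binds S100A10 and annexin A2. DYNC1H1 is the heavy chain of cytoplasmic dynein, the motor that hauls cargo along microtubules. HELZ is a helicase that binds RNA and interacts with the CCR4-NOT deadenylase. CDK6 is the kinase that D-type cyclins switch on in the G1 phase. ZNF704 and PEG3 are zinc finger proteins, and PEG3 is imprinted and expressed from the paternal copy. NORAD is a cytoplasmic RNA that binds PUM2, a protein of the Pumilio family.

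On build GRCh38.p14 the RefSeq annotation places AHNAK on chromosome 11 (62433544 to 62546806), DYNC1H1 on chromosome 14 (101964573 to 102056443), HELZ on chromosome 17 (67070444 to 67245989) and CDK6 on chromosome 7 (92604921 to 92836573). ZNF704 lies on chromosome 8 (80628451 to 80884419), PEG3 on chromosome 19 (56810082 to 56840726) and NORAD on chromosome 20 (36045618 to 36050960). The deposited tables list 64 transcripts of DYNC1H1, 18 of PEG3, 12 of HELZ, 8 of AHNAK, 6 of ZNF704, 5 of CDK6 and 1 of NORAD.

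Depth differed between groups. Estimated reads on all entries, in mega-reads (M), ran from 8.99 to 15.6 M in control exosomes, from 17.4 to 38.4 M in control granules and from 27.0 to 35.8 M in HD granules. Among the HD exosomes the range was 0.0011 to 14.4 M, and HD exosome 4 held 1074 reads in all, 713 of them on named genes. In HD exosome 2, 86.6% of the reads fell on entries that carry no gene name. HD granule 3 differed in the summed markers of the cell line. Its 6 HEK293 markers summed to 866 CPM, against 410 to 440 CPM in the other HD granules and 828 to 929 CPM in control exosomes. IGF2BP1 alone made up 638 CPM of that sum. Across all HD granules LIN28B ran from 88.8 to 119 CPM and HMGA2 from 66.8 to 93.9 CPM, so the set did not shift as a whole. HD exosomes 2 and 4 and HD granule 3 are called the 3 libraries that stand apart, as earlier results of these data had singled them out. Results from HD-induced cells are also given without them. In bulk RNA, fewer particles that carry a transcript and fewer copies per particle cannot be told apart, and every level is relative to the other RNAs of its library.

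Of the 7 members, 5 passed the filter on low counts in every comparison. PEG3 had 17.1 reads over all 20 libraries and at most 6 in any library. NORAD had reads in 4 libraries and none in the other 16. Levels below are CPM, read counts scaled to a common library size on named genes with the TMM method, unless TPM is named. TPM, the transcript abundance that Salmon gives, divides by length, so it is the scale on which different genes can be compared. CPM is relative to the reads on named genes, but TPM is relative to all entries, and those without a gene name took 36.7 to 46.3% of the reads in control exosomes and 24.9 to 59.2% in control granules. TPM is therefore used for the order of genes within a compartment. Fold changes are log2 values with their standard error. A change was called at an adjusted p under 0.05 by edgeR's quasi-likelihood test with Benjamini-Hochberg adjustment over all genes tested.

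The granules of control cells and the exosomes of the same cells did not hold the members alike. AHNAK was lower in granules by more than 2 log2 units, DYNC1H1 and ZNF704 were moderately higher there, and HELZ and CDK6 were not called. The share of all genes called in this comparison was 62.4% (9227 of 14777), with 30.0% higher and 32.5% lower in granules. The members' count, 3 of 5 called, is near that background.

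AHNAK, the membrane scaffold, measured 677, 987, 1000, 1086 and 954 CPM in control exosomes 1 to 5. In control granules 1 to 5 it measured 246, 158, 214, 155 and 192 CPM. The lowest exosome library was far above the highest granule library, so the groups did not overlap. The log2 fold change was -2.37 ± 0.17 (SE, n = 5 against 5; edgeR adjusted p = 4.71e-07). Groups did not overlap for 49.4% of the genes tested in this comparison. Among the 1316 tested coding genes longer than 7.5 kb, 8 had a lower log2 fold change than AHNAK and 1307 a higher one.

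DYNC1H1, the dynein heavy chain, moved the other way. It measured 454, 515, 437, 419 and 460 CPM in control exosomes and 1069, 575, 919, 631 and 739 CPM in control granules. Every granule library was above every exosome library, and the granule libraries spread more widely (SD 205 against 36.0 CPM). The log2 fold change was 0.69 ± 0.17 (SE, n = 5 against 5; edgeR adjusted p = 0.00326). This gene sum is not only coding mRNA by Salmon's estimate. Entries annotated as targets of nonsense-mediated decay took a mean of 64.0% of DYNC1H1 reads in control exosomes and 69.1% in control granules. Protein-coding entries took 23.1% and 11.2%, with overlapping ranges.

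ZNF704, a zinc finger protein, showed a difference of the same size at a lower level. Control exosomes held 52.7, 61.2, 42.3, 52.7 and 64.5 CPM. Control granules held 122, 78.0, 90.1, 72.4 and 87.7 CPM, again with no overlap. The log2 fold change was 0.63 ± 0.16 (SE, n = 5 against 5; edgeR adjusted p = 0.0045).

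HELZ, the RNA helicase, gave overlapping groups, with 225, 333, 282, 292 and 323 CPM in control exosomes and 309, 248, 307, 286 and 395 CPM in control granules. Its log2 fold change was close to 0, at -0.00 with a 95% interval of -0.31 to 0.30 (edgeR adjusted p = 0.981), and its sign turned under other scalings. CDK6, the G1 kinase, measured 288, 297, 288, 278 and 322 CPM in control exosomes and 358, 295, 349, 298 and 419 CPM in control granules. These groups also overlapped, with a log2 fold change of 0.13 and an interval of -0.11 to 0.37 (edgeR adjusted p = 0.309). Without control granule 2, CDK6 was called higher in granules at 0.32 (edgeR adjusted p = 0.0371).

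**Figure D1:**
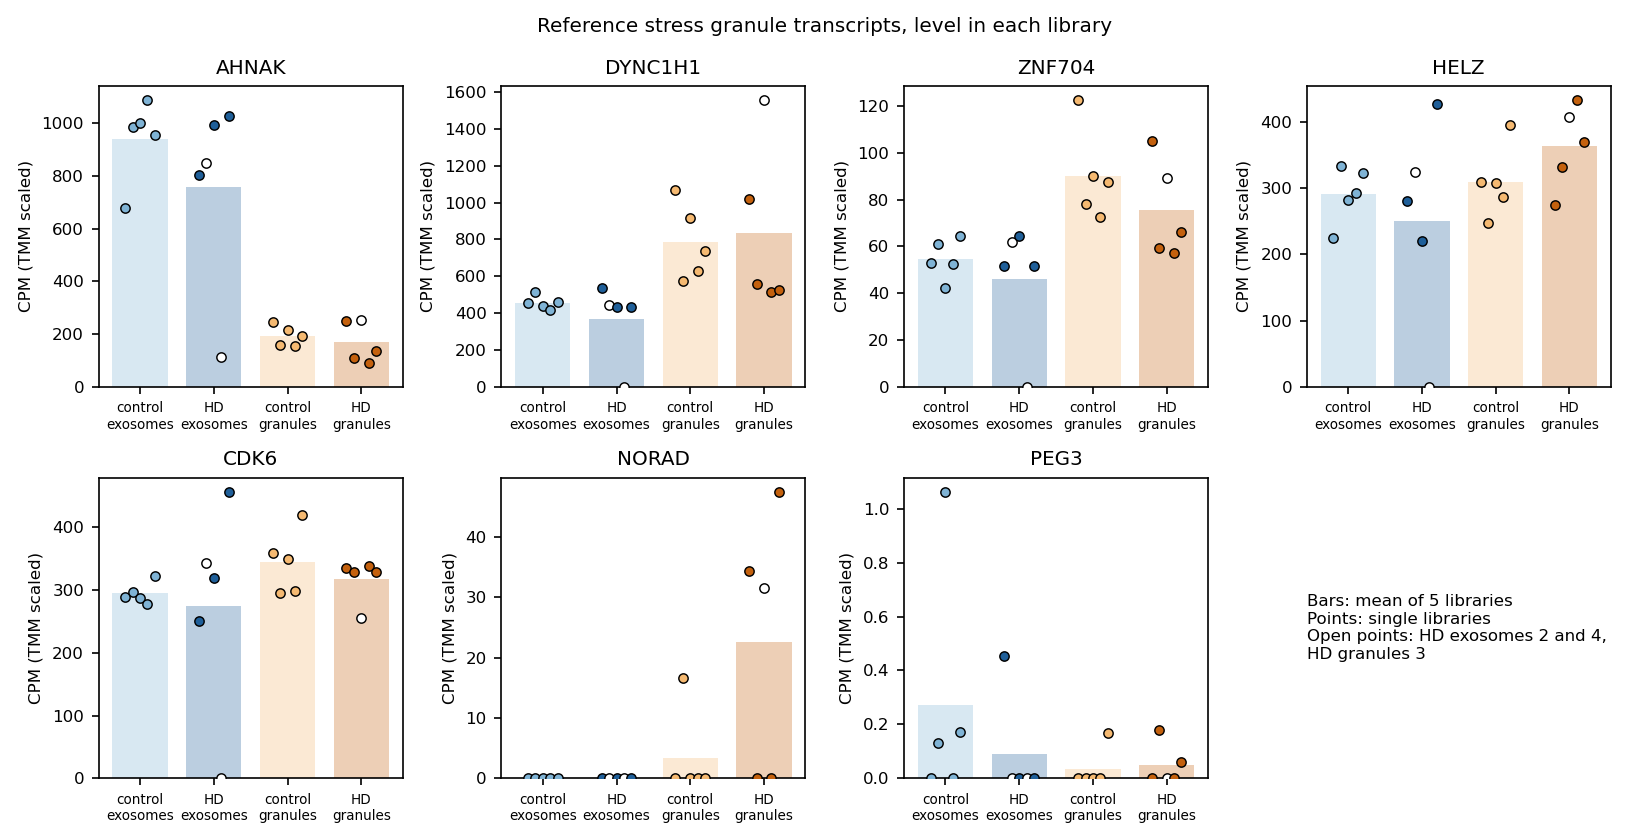
Level of each of the 7 transcripts in each library, in TMM-scaled CPM on linear axes that start at 0. Points are single libraries, bars are means of 5 libraries, and open points mark HD exosomes 2 and 4 and HD granule 3. AHNAK is high in the exosome groups, between 677 and 1086 CPM in control exosomes, and DYNC1H1 and ZNF704 are higher in control granules than in any control exosome library, while NORAD has reads in 4 granule libraries and PEG3 is near 0 everywhere.

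Per length the order of the members differed between the compartments. In control exosomes the mean TPM was 14.1 ± 4.19 for HELZ, 11.4 ± 1.47 for DYNC1H1, 10.7 ± 2.41 for AHNAK, 9.94 ± 1.07 for CDK6 and 1.61 ± 0.70 for ZNF704 (SD, n = 5). The ranges of HELZ, DYNC1H1, AHNAK and CDK6 overlapped each other there, and ZNF704 lay below all of them. In control granules the mean TPM was 22.8 ± 6.58 for DYNC1H1, 22.3 ± 8.07 for HELZ, 8.48 ± 2.56 for CDK6, 2.16 ± 0.80 for AHNAK and 1.71 ± 0.80 for ZNF704 (SD, n = 5). AHNAK, among the leading members in exosomes, overlapped the range of ZNF704 here, and DYNC1H1 and HELZ overlapped at the top.

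A level per length also depends on which transcripts carry the reads of a gene. With the average effective transcript length of each library as an offset, the log2 fold change of HELZ was 0.83, and HELZ was then called higher in granules. Under the same offset DYNC1H1 was at 1.15, AHNAK at -2.16 and ZNF704 at 0.22, where ZNF704 was no longer called (edgeR adjusted p = 0.545).

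Length is the property by which these reference transcripts are known, so they were set beside other coding genes of like length. Of the 1316 coding genes over 7.5 kb tested in control cells, 50.4% were called higher in granules and 12.5% lower, with a median log2 fold change of 0.43. From 5 to 7.5 kb the median was 0.12, from 2 to 5 kb it was -0.31, from 1 to 2 kb it was -0.44, and under 1 kb it was 0.48. DYNC1H1 stood above 63.7% of the class over 7.5 kb, ZNF704 above 60.2%, CDK6 above 33.7%, HELZ above 28.3% and AHNAK above 0.608%. DYNC1H1 and ZNF704 thus lay in the middle of long coding genes, and HELZ and CDK6 in the lower part.

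With an offset per library that evens out 20 bins of transcript length, no member was called higher in granules. DYNC1H1 then had a log2 fold change of 0.01 (edgeR adjusted p = 0.927) and ZNF704 of -0.04, so both calls ended. AHNAK was at -3.05, HELZ at -0.67 and CDK6 at -0.54, all 3 called lower in granules. An offset from 20 bins of GC content left DYNC1H1 at 0.99 and ZNF704 at 0.78, both called higher, with AHNAK at -2.23, HELZ at -0.57 and CDK6 at -0.41 called lower. Across coding genes the log2 fold change had a Spearman's rho of 0.157 with transcript length and of -0.515 with GC content, and genes are not independent replicates.

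**Figure D2:**
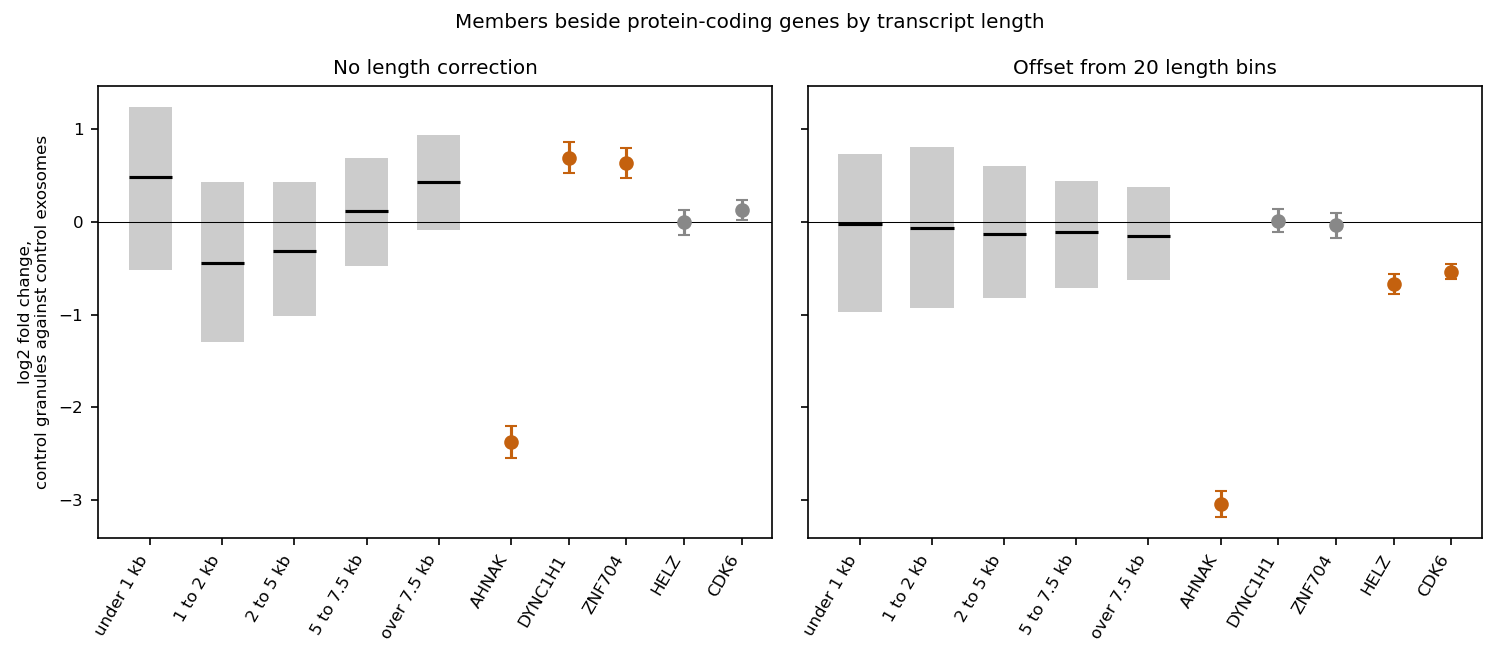
Log2 fold change of control granules against control exosomes for 5 length classes of coding genes (grey boxes from the lower to the upper quartile, black line at the median) and for the 5 tested members (points with standard errors, orange where called). Without a length correction DYNC1H1 and ZNF704 sit above 0 near the median of genes over 7.5 kb, 0.43. With the length offset both sit at 0, HELZ and CDK6 are called below it, and AHNAK is far below the boxes in both panels, at -2.37 and -3.05.

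The entries matched in GENCODE release 29 differ in how much of their length is coding. AHNAK-202 is 18787 bases long there, of which 17673 are coding, more than in 99.9% of the 12404 coding genes compared. For DYNC1H1 the entry used was DYNC1H1-201, with 20003 bases and 13941 coding, but it held 1.68% of DYNC1H1 reads. The DYNC1H1 entry with the most reads was DYNC1H1-243, annotated as a target of nonsense-mediated decay, with 14261 bases and 24.7% of the reads. CDK6 has 11612 bases of which 981 are coding, and its 3' untranslated region takes up 88.0% of it. That share is 89.8% for ZNF704-201, 56.6% for HELZ, 29.4% for DYNC1H1-201 and 4.47% for AHNAK. ZNF704-201 held 38.8% of ZNF704 reads, and ZNF704-204, with 15071 bases, held 60.6%. GC content ran from 39.5% (CDK6) and 39.7% (HELZ) to 49.3% (AHNAK) and 52.2% (DYNC1H1-201), against a median of 48.5% over the coding genes. Coding length entered no fit. GC content entered only as the bin offset given above, with which HELZ and CDK6 were also called lower in granules. Whether either plays a part in the members' directions was not tested beyond that.

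The coding sequence of AHNAK is built from repeats. The most repeated 24-base word occurs 12 times between coding bases 2610 and 14342, and 26.5% of all 24-base positions of the coding sequence hold a word found more than once. In DYNC1H1, HELZ and CDK6 no 24-base word of the coding sequence was repeated. The word is shown, in capitals throughout, because it is the most frequent piece of the AHNAK repeat. ZNF704, PEG3 and NORAD were not examined for repeats.
AHNAK repeat: CCCAGACTGGCACCTGAAGATGCC
Since 99.9% of AHNAK reads were assigned to the single transcript AHNAK-202, the repeats lie within 1 entry of the tables. By itself AHNAK-202 had a log2 fold change of -2.45 ± 0.18 (SE, n = 5 against 5; edgeR adjusted p = 1.15e-05 over all transcripts tested).

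In HD-induced cells AHNAK was again lower in granules. HD exosomes 1, 2, 3 and 5 held 803, 849, 992 and 1025 CPM, and HD exosome 4, with 1 read, stood at 113 CPM. That value rests on a TMM factor of 12.6 for HD exosome 4, and its AHNAK TPM, 19.05, lay close to the highest of the HD exosomes, 19.08. HD granules 1 to 5 held 251, 111, 254, 89.6 and 135 CPM. Apart from HD exosome 4, every exosome library was above every granule library. The log2 fold change was -2.28 ± 0.44 (SE, n = 5 against 5; edgeR adjusted p = 0.0068). Without the 3 libraries that stand apart it was -2.72 (edgeR adjusted p = 0.00098). In this comparison 17.7% of genes were called, 11.9% higher and 5.77% lower in granules, and 35.0% were called without the 3 libraries. Groups did not overlap for 10.5% of genes.

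AHNAK was the only one of the 5 tested members called in HD-induced cells. DYNC1H1 measured 538, 447, 431, 0 and 433 CPM in HD exosomes and 1022, 557, 1555, 514 and 528 CPM in HD granules. HD exosome 1 lay above HD granules 4 and 5, and the other exosome libraries lay below all granule libraries. Its log2 fold change was 1.00 ± 0.47 (edgeR adjusted p = 0.148), and 0.45 without the 3 libraries (edgeR adjusted p = 0.259). HD granule 3, at 1555 CPM, was the highest of all 20 libraries for DYNC1H1.

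ZNF704 measured 51.5, 62.0, 64.6, 0 and 51.6 CPM in HD exosomes and 105, 59.2, 89.4, 57.4 and 66.0 CPM in HD granules, with overlap (log2 fold change 0.44 ± 0.27, edgeR adjusted p = 0.279). HELZ measured 281, 323, 219, 0 and 426 CPM in HD exosomes and 274, 332, 407, 432 and 369 CPM in HD granules (log2 fold change 0.33 ± 0.36, edgeR adjusted p = 0.547). CDK6 measured 251, 343, 319, 0 and 456 CPM in HD exosomes and 335, 328, 256, 338 and 328 CPM in HD granules (log2 fold change 0.01 ± 0.35, edgeR adjusted p = 0.986). The zeros are those of HD exosome 4, where 713 reads on named genes could not show these members. Both DYNC1H1 and ZNF704 had the sign seen in control cells, and whether the differences between compartments depend on HD is tested below.

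No member was called between HD-induced and control cells. In exosomes 0 of 12936 genes were called (980 had an unadjusted p under 0.05; DESeq2 and voom also called 0), a background of 0%, and the groups did not overlap for 0.897% of genes and for none of the members. In granules 0 of 16750 genes were called (215 at an unadjusted p under 0.05; DESeq2 called 4 and voom 5), again 0%, with no overlap for 0.328% of genes and for none of the members. The members' estimates show how large a difference these data leave possible.

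In granules the HD-induced against control log2 fold change of AHNAK was -0.21, with a 95% interval from -0.89 to 0.46. That of DYNC1H1 was 0.07 (-0.69 to 0.84), that of HELZ 0.21 (-0.17 to 0.60), that of CDK6 -0.14 (-0.46 to 0.19) and that of ZNF704 -0.27 (-0.74 to 0.20). In exosomes AHNAK was at -0.09 (-0.68 to 0.49), DYNC1H1 at -0.02 (-0.52 to 0.49), HELZ at 0.07 (-0.44 to 0.59), CDK6 at 0.19 (-0.31 to 0.69) and ZNF704 at 0.09 (-0.34 to 0.52). All 10 intervals include 0, and the widest reach beyond 0.8 log2 units, so that the test's misses do not show that the levels were alike.

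The interaction, which asks whether the HD effect in granules differs from that in exosomes, called 3 of 16154 genes (0.0186%; 0.00619% higher and 0.0124% lower) and none of the members. The member estimates ran from -0.30 (ZNF704) to 0.20 (HELZ), with the widest interval for DYNC1H1, from -0.79 to 1.14. For AHNAK the estimate was -0.03 (-0.95 to 0.89).

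Several single transcripts of HELZ and DYNC1H1 had reads in granules and few or none in exosomes. Among the 32 transcripts of the members that could be tested in control cells, 11 were called, against 32.9% of all 42932 transcripts tested. Of those 11, 10 were higher in granules, where 8242 of all 14132 called transcripts were higher. Called higher were thus 10 of the 32 member transcripts tested, against 19.2% of all transcripts tested. The 10 were HELZ-209 and HELZ-212, 7 DYNC1H1 entries annotated as retained introns (DYNC1H1-207, DYNC1H1-209, DYNC1H1-215, DYNC1H1-216, DYNC1H1-217, DYNC1H1-223 and DYNC1H1-232) and DYNC1H1-257, annotated as a transcript without a defined coding sequence. The exception was AHNAK-202. A retained-intron transcript keeps an intron that the coding transcript splices out, and the deposited tables list 3 such entries for HELZ and 31 for DYNC1H1. Of the 14 retained-intron entries of HELZ and DYNC1H1 that could be tested, 9 were called higher and none lower. Over all genes 39.8% of the 8201 retained-intron entries tested were called higher in control granules and 2.40% lower, with a median log2 fold change of 1.89, so a rise of such entries was common in these granules.

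These entries differ from the reference coding transcript, HELZ-201 or DYNC1H1-201, where they run on from an exon into the kept intron. Such a stretch is shown for 3 of the entries, in the 5' to 3' direction of the gene and on build GRCh38. Exon bases of that reference transcript are in lower case and intron bases in capitals.
HELZ-209, chr17:67215788-67215935, minus strand: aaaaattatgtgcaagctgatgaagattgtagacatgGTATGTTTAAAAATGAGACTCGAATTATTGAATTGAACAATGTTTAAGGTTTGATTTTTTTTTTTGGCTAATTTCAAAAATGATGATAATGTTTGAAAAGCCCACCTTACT
DYNC1H1-215, chr14:102010913-102011072, plus strand: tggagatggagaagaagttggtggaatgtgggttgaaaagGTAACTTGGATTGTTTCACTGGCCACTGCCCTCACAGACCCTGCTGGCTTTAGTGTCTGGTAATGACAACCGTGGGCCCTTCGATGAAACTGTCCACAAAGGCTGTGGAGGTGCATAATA
DYNC1H1-217, chr14:102047989-102048148, plus strand: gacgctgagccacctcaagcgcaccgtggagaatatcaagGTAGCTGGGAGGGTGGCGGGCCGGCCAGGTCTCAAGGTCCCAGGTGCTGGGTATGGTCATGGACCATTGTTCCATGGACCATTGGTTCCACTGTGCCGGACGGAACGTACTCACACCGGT
All 3 introns open with GT, the usual 5' splice site. The stretch of DYNC1H1-215 is also part of DYNC1H1-213, and that of DYNC1H1-217 is also part of DYNC1H1-223 and DYNC1H1-234, so it does not single out 1 entry. HELZ-209 is 520 bases long, of which 111 lie outside the exons of HELZ-201, and 409 are shared with it, so most of a read on HELZ-209 could also be assigned to HELZ-201. For HELZ-212 the bases outside are 516 of 1101. Outside the exons of DYNC1H1-201 lie 859 of the 7596 bases of DYNC1H1-215 and 1728 of the 2863 bases of DYNC1H1-217. The division of reads among overlapping transcripts is an estimate of Salmon.

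The 520-base HELZ entry, HELZ-209, had 0 reads in all 10 exosome libraries. It had 57, 134, 171, 215 and 168 reads in control granules and 96, 298, 3, 534 and 385 in HD granules. All 10 granule libraries thus held reads of it, with HD granule 3 the lowest at 3. Against a floor of 3 counts over the exosome group it was at least 114-fold higher in control granules (edgeR adjusted p = 0.000326). HELZ-212 had 0, 1, 0, 0 and 3 reads in control exosomes and 15, 37, 67, 82 and 31 in control granules. Its log2 fold change was 4.34 ± 0.98 (SE, n = 5 against 5; edgeR adjusted p = 0.00702). The coding transcript HELZ-201, in contrast, held 1654, 2173, 1363, 1118 and 1612 reads in control exosomes and 2994, 2348, 3378, 4322 and 3695 in the deeper control granules, and its log2 fold change was -0.18 ± 0.16 (edgeR adjusted p = 0.404).

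The longest of the DYNC1H1 entries called in control cells, DYNC1H1-215, had 0 reads in 9 of the 10 exosome libraries and 9 reads in control exosome 4. It had 344, 308, 640, 901 and 384 reads in control granules and 483, 896, 132, 1133 and 842 in HD granules. Its log2 fold change in control cells was 6.55 ± 1.26 (SE, n = 5 against 5; edgeR adjusted p = 0.00282). In HD-induced cells, where all exosome libraries were at 0, it was at least 160-fold higher in granules against the same floor (edgeR adjusted p = 0.0076). DYNC1H1-217 had 0 reads in all 10 exosome libraries, 23, 14, 40, 26 and 15 in control granules and 30, 27, 17, 21 and 25 in HD granules. It was at least 18.1-fold higher in control granules (edgeR adjusted p = 0.00179). A count of 0 here limits reads assigned to the entry and covers counting error only.

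**Figure D3:**
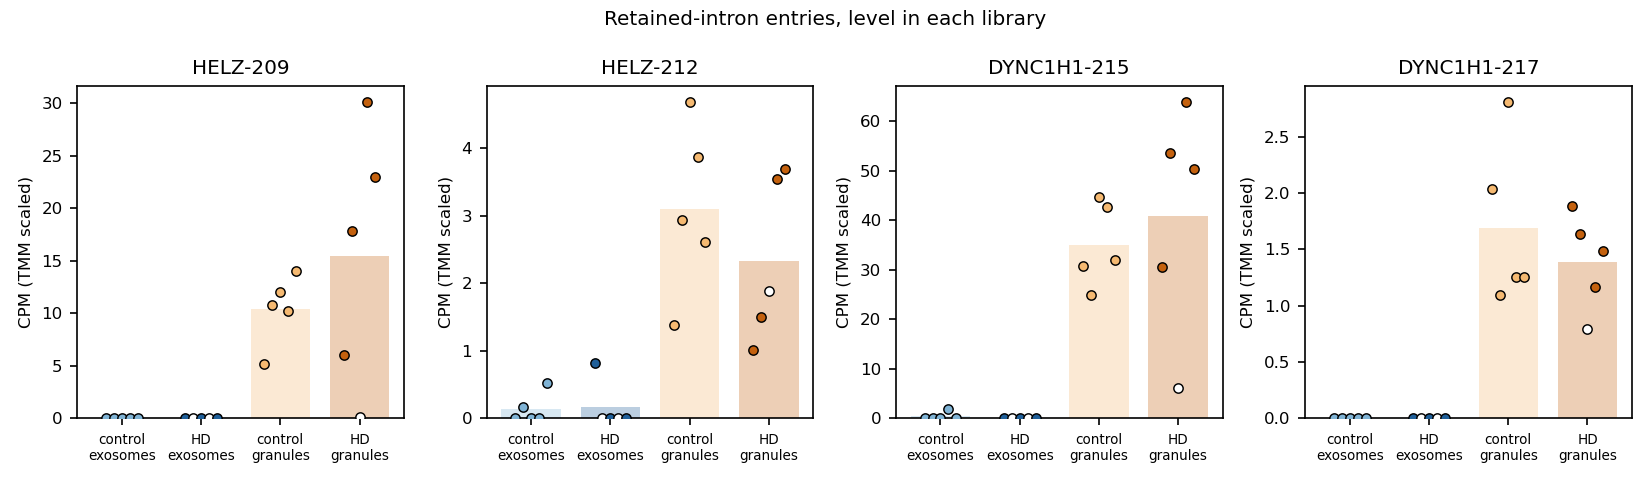
Level of 4 retained-intron entries in each library, in TMM-scaled CPM on linear axes that start at 0, with bars at the mean of 5 libraries and open points for HD exosomes 2 and 4 and HD granule 3. HELZ-209 and DYNC1H1-217 have 0 reads in all 10 exosome libraries, and reads of all 4 entries are present in every granule library.

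In HD-induced cells 7 DYNC1H1 transcripts were called, all higher in granules, against 11.4% of the 38443 transcripts tested (11.2% higher in granules). They were the retained-intron entries DYNC1H1-213, DYNC1H1-215, DYNC1H1-216 and DYNC1H1-223, DYNC1H1-242, DYNC1H1-249 (both annotated as targets of nonsense-mediated decay) and DYNC1H1-257. Without the 3 libraries that stand apart, 11 of 44 member transcripts tested were called, against 20% of all transcripts (11004 of 55050), among them AHNAK-202, HELZ-209, DYNC1H1-215, DYNC1H1-216 and DYNC1H1-217. No member transcript was called between HD-induced and control cells in either compartment.

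Summed over entries, the share of a gene's reads on retained introns gave the same picture for HELZ and a looser one for DYNC1H1. These shares were added after the data were seen and carry no test. For HELZ the share was at most 0.660% in the 5 control exosome libraries and 2.30, 6.12, 5.73, 5.34 and 4.70% in control granules. In HD granules it was 3.00, 6.28, 0.671, 8.20 and 7.64%, with HD granule 3 the lowest; without that library the mean was 6.28 ± 2.33% (SD, n = 4). For DYNC1H1 the share was 21.5, 10.1, 17.2, 8.47 and 6.29% in control exosomes and 12.0, 22.0, 16.4, 25.6 and 19.3% in control granules, and the groups overlapped. In HD granules it was 12.7, 29.7, 3.92, 37.1 and 35.0%. Over all genes the share was 3.34 ± 0.16% in control exosomes and 7.99 ± 0.58% in control granules (SD, n = 5), so retained-intron entries as a whole also held a larger share in granules.

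**Figure D4:**
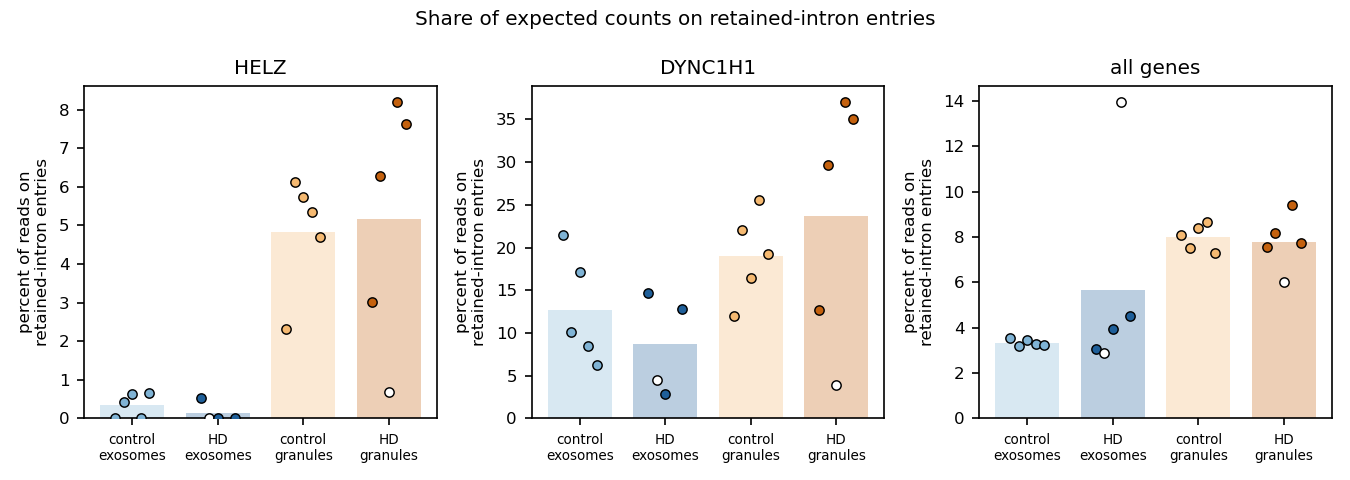
Percent of expected counts on retained-intron entries of HELZ, of DYNC1H1 and of all genes in each library, with bars at the mean and open points for HD exosomes 2 and 4 and HD granule 3 (HD exosome 4 has too few reads of HELZ and DYNC1H1 for a share). HELZ lies at or under 0.660% in exosomes and DYNC1H1 overlaps between compartments, while over all genes the control groups lie near 3.34% and 7.99%.

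The share of HELZ TPM on its main transcript was lower in control granules, but the difference was not called. HELZ-201 made up 47.8 ± 7.38% of HELZ TPM in control exosomes and 21.3 ± 7.28% in control granules (SD, n = 5). The groups did not overlap, and how often such shares do not overlap over all genes was not computed. An exact 2-sided permutation test gave p = 0.00794, the smallest that 5 against 5 libraries allow, and p = 0.159 after adjustment over 20 such tests of 5 members in 4 comparisons. None of the 20 passed the adjusted threshold, which a single share at the smallest p could not pass on its own. For DYNC1H1 the entry with the highest TPM was DYNC1H1-243, annotated as a target of nonsense-mediated decay, at 24.1 ± 9.9% of DYNC1H1 TPM in control exosomes and 10.8 ± 7.27% in control granules (exact permutation p = 0.0556, adjusted p = 0.476). AHNAK-202 made up at least 88.8% of AHNAK TPM in every control library.

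NORAD is a textbook reference RNA of granules, and its reads were too uneven here to give a level. All 10 exosome libraries were listed at 0. Control granule 2 held 205 reads and the other control granules 0. HD granules 1, 3 and 5 held 541, 675 and 794 reads and HD granules 2 and 4 held 0. The granule libraries thus had either at least 205 reads or none, although each held at least 11.4 M reads on named genes. The tables also hold entries without gene names, and 10 of those that have exactly the length of NORAD carried 150 reads in all. Whether unnamed entries hold the NORAD sequence was not tested, because their sequences were not used here.

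NORAD is shown by its binding sites because they are what it is known for. The motif TGTANATA, searched on the transcript strand, is the Pumilio element in DNA letters, where N is any base. NORAD holds 15 of them in 5339 bases, 10 as TGTATATA, 4 as TGTAAATA and 1 as TGTACATA. At 2.81 per kb this is more than in 99.98% of the 12404 coding transcripts compared, of which 29.5% hold any (59.6% of the 2920 over 5 kb). Elements 1, 3 and 5 are given with 10 bases on each side, the element in capitals, from the minus strand of chromosome 20.
NORAD element 1, chr20:36050183-36050210: ggaaggcctgTGTATATAatatgaaaaa
NORAD element 3, chr20:36049703-36049730: aatcacatttTGTAAATAcctttttgtt
NORAD element 5, chr20:36049493-36049520: gtgtatatagTGTACATAaaggacagac
Elements 4 and 5 lie 1 base apart. ZNF704-201 holds 6 such elements, AHNAK and PEG3 2 each, HELZ 1, and DYNC1H1-201 and CDK6 none. The letters alone do not show binding, and their absence in a transcript says nothing of the factor.

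PEG3, the imprinted zinc finger gene, had 0, 1.08, 6, 0 and 1 reads in control exosomes, 3 reads in HD exosome 1 and 0 in the other HD exosomes. It had 2 reads in control granule 5, 3 in HD granule 2 and 1 in HD granule 5. No difference was detectable at this depth.

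The partners of each member are read against the shares over all genes tested in control cells, 30.0% called higher and 32.5% called lower in granules. These shares vary with length. Of coding genes from 2 to 5 kb, 21.8% were called higher and 41.4% lower (median log2 fold change -0.31). From 1 to 2 kb the shares were 19.9% and 44.8% (median -0.44). Whether any list differs from coding genes of like length was not tested. Of 28 tested genes of dynein, dynactin and their adaptors, which work with DYNC1H1, 7 were called higher and 13 lower in control granules, with a median log2 fold change of -0.37, against -0.02 over all genes tested. Genes named from each list are those with the smallest p in this same comparison, so their values do not stand for the list. DYNC1LI2, a light intermediate chain of dynein, was at -1.27, ACTR1A, the filament subunit of dynactin, at -2.27, and BICD2, a cargo adaptor, at -2.74. Of the CCR4-NOT subunits and helicases listed with HELZ, 3 were higher and 9 lower of 18 (median -0.27), with CNOT7, a deadenylase, at -0.89, CNOT9 at -1.12 and CNOT11 at -1.34.

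Among the genes of the cyclin D and CDK pathway around CDK6, 5 were higher and 10 lower of 17 (median -0.64). CCND1 at -1.65 and CCND3 at -2.49, the D-type cyclins that activate CDK6, were lower, and E2F3, a transcription factor downstream, was higher at 1.04. The genes listed with AHNAK were lower as AHNAK was: 3 of 4 were called lower and none higher, with AHNAK2 at -1.39, S100A10 at -2.64 and ANXA2 at -1.58. In HD-induced cells 3 of these 4 were again called lower in granules, but 1 with the length-bin offset or with all reads as library size. Among genes for proteins that bind NORAD, PUM2 was higher at 1.12 and KHDRBS1 was lower at -0.84. Of 7 tested imprinted genes, 2 were higher and 3 lower, with IGF2 at -4.90, L3MBTL1 at 1.35 and SGCE at 1.61. The relatives of ZNF704 gave 1 called lower of 2, ZNF395 at -0.69, while SLC2A4RG was at -0.83 and not called.

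mRNAs for the protein core of stress granules went in both directions. Of 19, 4 were higher and 9 lower in control granules (median -0.07, and 0.04 with RLE scaling), with USP10 at -0.84, PABPC1 at -0.90 and PUM2 at 1.12, against 30.0% higher and 32.5% lower over all genes. In HD-induced cells 1 of the 19 was called higher and none lower, against 11.9% and 5.77% of all genes. These lists were chosen with earlier results of these data known.

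The markers of other cell types moved with the comparison in which AHNAK fell. The summed level of 8 blood markers was 78.4 to 259 CPM in control exosomes and 11.3 to 36.6 CPM in control granules, and 5 of the 6 tested were called lower in granules. The sum of 6 keratinocyte markers was 8.54 to 107 CPM in control exosomes and 1.53 to 2.96 CPM in control granules (3 of 3 tested lower), and that of 5 markers of fibroblasts and endothelium was 20.2 to 47.9 against 3.34 to 14.2 CPM (2 of 2 tested lower). In the HD exosomes other than HD exosome 4 the blood sum reached 2035 CPM and the keratinocyte sum 1035 CPM. PPBP was at 0 in every library. The HEK293 markers, with LIN28B and IGF2BP1 well detected in every group, summed to 828 to 929 CPM in control exosomes and 401 to 513 CPM in control granules, and 4 of 4 tested were lower. The part of other cells in the AHNAK result was not tested.

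Across the 19 libraries other than HD exosome 4, the members did not form 1 pattern. The Pearson correlation of log2 levels was 0.84 between DYNC1H1 and ZNF704, 0.44 between HELZ and CDK6, -0.49 between AHNAK and DYNC1H1 and -0.50 between AHNAK and ZNF704. Among 14030 genes the closest to AHNAK were AGO1 (0.980) and AMER1 (0.979), the closest to DYNC1H1 were RNF213 (0.968) and SPEN (0.963), and the closest to ZNF704 were PODXL (0.910) and ZNF318 (0.898). For HELZ they were CTTNBP2NL (0.908) and KMT2E (0.906), and for CDK6 SERAC1 (0.886) and ZBTB33 (0.863). These values describe libraries that fall into 2 compartments and share their depths, so a difference between compartments alone can give a high value.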

How the data were processed

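The deposited tables give, for each transcript and library, an expected count, Salmon's fractional estimate of its reads, and the TPM, both of which the authors computed against GRCh38.p14. Per the submitters' processing notes, Trimmomatic, cutadapt, FastQC and Salmon were used. The notes name no versions, and no source used here names the annotation release. Per the labels' protocols, a mirVana kit served to isolate RNA, and the total RNA libraries were stranded. The labels call the 5 libraries of a group biological replicates and do not say which came from separate cultures, so p-values measure the spread between these libraries.

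Expected counts were summed per gene and rounded. Each table lists 921552 entries, of which 669597 carry no gene name and entered no test. Genes were kept by filterByExpr, scaled by TMM and compared with edgeR 4.0.16 (R 4.3.3), using its quasi-likelihood test in the robust form, with Benjamini-Hochberg adjustment. Single transcripts were tested in the same way over all named transcripts. Alternatives used RLE and upper-quartile factors, DESeq2 1.42.0, voom of limma 3.58.1, no filter, all reads as library size, offsets for effective length, for 20 bins of transcript length and for 20 bins of GC content, a replicate block, each library left out, and the 3 libraries that stand apart left out together. The test was tested on simulated data. Sequences, transcript lengths and coding lengths are from GENCODE release 29 on GRCh38, matched by transcript identifier, and gene positions from RefSeq. Intervals and floors cover counting error or spread between libraries only.

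The members and lists were chosen with earlier results of these data known. Named genes are the 7 members, the 3 genes of each list with the smallest p in control granules against control exosomes, marker genes at a mean of 1 CPM or more, and per member the 2 genes with the highest Pearson correlation of log2(CPM + 1). For the markers, the sums of their lists are given. One gene of the NORAD-binding list is not reported here. The lists were dynein and dynactin, cyclin D and CDK, NORAD-binding proteins, AHNAK-related genes, CCR4-NOT and helicases, imprinted genes, ZNF704 relatives, stress granule core proteins, and markers of HEK293 cells, blood, keratinocytes, and fibroblasts with endothelium.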

Additional observations from a re-analysis of the deposited data

Results flagged for a closer look

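In 22 groups of 5 libraries, 1 library stood far from the rest by Dixon's criterion 5 times, where chance alone gives about 1 in 20. HD exosome 4, which had 1074 reads in all, was the low library among HD exosomes for AHNAK (113 CPM, from 1 read), for DYNC1H1 (0 CPM) and for ZNF704 (0 CPM). The AHNAK value depends on a TMM factor of 12.6, and by TPM HD exosome 4 was not low (19.05, where the other HD exosomes reached 19.08). HD granule 3 was the low library among HD granules for CDK6, at 256 CPM where the other 4 held 328 to 338 CPM. Control granule 2 was the only control granule library with reads of NORAD, at 16.6 CPM against 0 in the other 4.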

How the results depend on the processing

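The direction and call of AHNAK between compartments held under every alternative run, in both states. Of the 5 tested members, 3 were called in control cells, and 5 with the GC-bin offset. In HD-induced cells 1 was called, 2 with DESeq2 (DYNC1H1 at 1.16), 2 with the effective-length offset and 3 with the GC-bin offset (DYNC1H1 at 1.15, ZNF704 at 0.65). Leaving out each library gave 3 to 4 called in control cells, 1 in HD-induced cells and 0 in each HD comparison. The TMM scaling put the median log2 fold change of all genes in control cells at -0.02, and RLE put it at 0.09. Single transcripts of the members were called 18 times over the 4 comparisons, 11 in control cells and 7 in HD-induced cells. Leaving out the 3 libraries that stand apart changes no control library, and gave 11 calls, all in HD-induced cells, in place of 7 there; without the filter 2 were called in HD-induced cells. The background in HD-induced cells, 2553 genes, was 6029 with voom, 4244 without the filter, 852 with all reads as library size, 4317 with GC bins, 4006 with the replicate block and 5758 without the 3 libraries. Leaving out HD granule 3 alone gave 5346, and leaving out any other HD granule library gave at most 1477. For HD in exosomes 0 genes were called, 275 without the filter, 8 with all reads, 296 with the block and 497 without HD exosome 1. For HD in granules 0 were called, 4 with DESeq2, 5 with voom and 1 with all reads. In the interaction 3 were called, 17 with DESeq2, 1 with the block and 28 without HD exosome 1. None of the genes called in these 3 HD comparisons was a member.

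HELZ, at -0.00 in control cells, turned to 0.12 with RLE, upper-quartile factors and DESeq2, 0.13 without the filter, 0.15 with all reads as library size and 0.83 with the effective-length offset. CDK6 in control cells turned to -0.082 (effective length), -0.54 (length bins) and -0.41 (GC bins), and ZNF704 to -0.038 (length bins). In HD-induced cells HELZ turned to -0.062 (length bins), ZNF704 to -1.25 (effective length), and CDK6 to -0.11 (effective length), -0.39 (length bins), -0.27 (GC bins) and -0.080 (without the 3 libraries). The cause was not tested.

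For HD against control in exosomes, HELZ turned to -0.0068 (RLE), -0.0034 (DESeq2), -0.075 (voom), -0.042 (no filter), -0.067 (all reads), -0.017 (effective length), -0.069 (length bins) and -0.13 (GC bins). AHNAK turned to 0.0019 without the 3 libraries, DYNC1H1 to 0.088 (effective length), 0.098 (GC bins) and 0.040 (without the 3 libraries), CDK6 to -0.030 (GC bins), and ZNF704 to -0.034 (no filter), -0.10 (all reads) and -0.030 (length bins). In granules DYNC1H1 turned to -0.55 (voom), -0.024 (effective length), -0.033 (GC bins) and -0.26 (without the 3 libraries). In the interaction AHNAK turned to 0.22 (length bins), DYNC1H1 to -0.56 (voom), -0.033 (effective length) and -0.30 (without the 3 libraries), and CDK6 to 0.013 (length bins). None of these HD values was called.

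Leaving out each library moved HELZ in control cells between -0.092 and 0.20 and CDK6 in HD-induced cells between -0.15 and 0.21. For HD against control in exosomes the ranges were -0.089 to 0.038 for DYNC1H1, -0.080 to 0.18 for HELZ and -0.0094 to 0.15 for ZNF704. DYNC1H1 ranged from -0.26 to 0.21 in granules. In the interaction AHNAK ranged from -0.26 to 0.12 and DYNC1H1 from -0.21 to 0.30.

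The labels give the groups the same replicate numbers, but same-numbered libraries did not deviate together throughout: the correlations ran from -0.23 to 0.30 for compartments in control cells, 0.023 to 0.31 for compartments in HD-induced cells, -0.11 to 0.30 for HD in exosomes and -0.16 to 0.58 for HD in granules. In no comparison were all 5 over 0.1, so the numbers were not taken as pairs. For compartments in HD-induced cells the value under 0.1 was that of replicate 4, at 0.023. It rests on HD exosome 4, whose 713 reads on named genes are too few to show pairing. With the replicate block, the members called stayed at 3 in control cells and 1 in HD-induced cells, DYNC1H1 in granules turned to -0.048 and AHNAK in the interaction to 0.0049, and 12 single transcripts were called. In control cells 6 transcripts were then called in place of 11. Each library correlated best with its own number in 1 or 2 of 5 cases per comparison. Upper-quartile factors could not be fitted for the 3 comparisons with HD exosome 4. Depth limits PEG3 and everything that rests on HD exosome 4.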
